A study of Mus musculus with 4 samples.

Results

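The genes described here encode the digestive enzymes of the lysosome, its membrane proteins, the proton pump that acidifies it and the transcription factors TFEB, TFE3 and MITF, which control many of them. They were taken as a list of 43 gene names out of 52476 gene names in the expression table, and each name was found. By role they are 9 proteases, 8 glycosidases, a group of 5 made up of sphingolipid hydrolases, their activator proteins and progranulin, 6 membrane or sorting proteins, 12 subunits of the proton pump and 3 regulators.

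RNA was sequenced from mouse bone marrow-derived macrophages, which are grown from marrow cells in culture, here for 7 days with 20 ng/ml M-CSF. The 4 groups were OGT-knockout (OGT-KO) macrophages after 24 h of IL-4 at 20 ng/ml, OGT-KO macrophages at 0 h, wild-type (WT) macrophages after 24 h of the same IL-4, and WT macrophages at 0 h. OGT modifies intracellular proteins with the sugar O-GlcNAc, and IL-4 is the cytokine that drives alternative (M2) activation. The comparisons ask how the knockout alters expression before and during that activation. Each group was 1 library, so there is no error between cultures, no p-value is given and a difference describes those libraries. The labels name no untreated 24 h culture, so IL-4 and time in culture cannot be told apart. The 0 h samples also carry an IL-4 treatment tag and were read as unstimulated from their time. How Ogt was deleted, in which cells, and from how many animals the marrow came was not stated in the labels.

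Lysosomal hydrolases are made in the secretory pathway, tagged for delivery and activated in the acidic lumen that the V-ATPase maintains by pumping protons. TFEB, TFE3 and MITF bind promoters that hold the CLEAR element, whose core is the E-box CACGTG, and they move to the nucleus when nutrient signalling at the lysosome is low. Macrophages depend on this system to degrade what they engulf, and their lysosomes are rich in cathepsins.

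The libraries were of similar depth, and 1 FPKM of a 2 kb transcript stood for an estimated 40 to 43.5 fragments. Ogt itself stood at 14.5 and 14.2 FPKM (fragments per kilobase of transcript, scaled to the size of the library) in the OGT-KO libraries at 24 h and 0 h, against 29.8 and 27.4 FPKM in the WT libraries, with the unit inferred from the values, so that its transcript was lower in both knockouts but not absent. Whether the remaining reads fall outside a deleted part was not tested. Of the macrophage markers, Adgre1 had 378 and 1027 FPKM in OGT-KO cells at 24 h and 0 h, and 361 and 1149.5 FPKM in WT cells, while Csf1r had 726, 885, 610.0 and 760.0 FPKM in the same order. The 10 markers of neutrophils summed to 681 and 2121 FPKM in the OGT-KO libraries at 24 h and 0 h and to 1043 and 3322 FPKM in the WT libraries. This sum was thus lower with IL-4 in both genotypes and lower in OGT-KO than in WT cells at both times. Of the markers, Cxcr2 went the other way with IL-4, at 1.75 FPKM at 24 h and 0.83 at 0 h in OGT-KO cells, and 1.42 and 1.00 in WT cells. The part of these markers in the results below was not tested. In bulk RNA, fewer cells of a type and less RNA per cell cannot be told apart.

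Each of the 43 genes had at least 1 FPKM in each library, and together they summed to 20481 FPKM in OGT-KO cells at 24 h, 19129 in OGT-KO cells at 0 h, 19291 in WT cells at 24 h and 18777 in WT cells at 0 h. These sums were 5.80%, 5.63%, 5.47% and 5.54% of all FPKM in those libraries, close to each other although roles within the list differed in opposite directions with IL-4. Psap, which encodes the precursor of the saposins that present sphingolipids to their hydrolases, was the most abundant of the 43 in each library and alone made up 2.32% and 1.56% of all FPKM in OGT-KO cells at 24 h and 0 h, and 2.27% and 1.64% in WT cells. With IL-4 the summed FPKM of the sphingolipid group was higher, at 8766 against 5900 in OGT-KO cells and 8619 against 6164 in WT cells. The summed FPKM of the proteases was lower with IL-4, at 7363 against 9055 in OGT-KO cells and 6589 against 8619 in WT cells. The estimated fragments behind a gene ran from 212 for Smpd1 to 451791 for Psap, with a median of 3356.

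**Figure D1:**
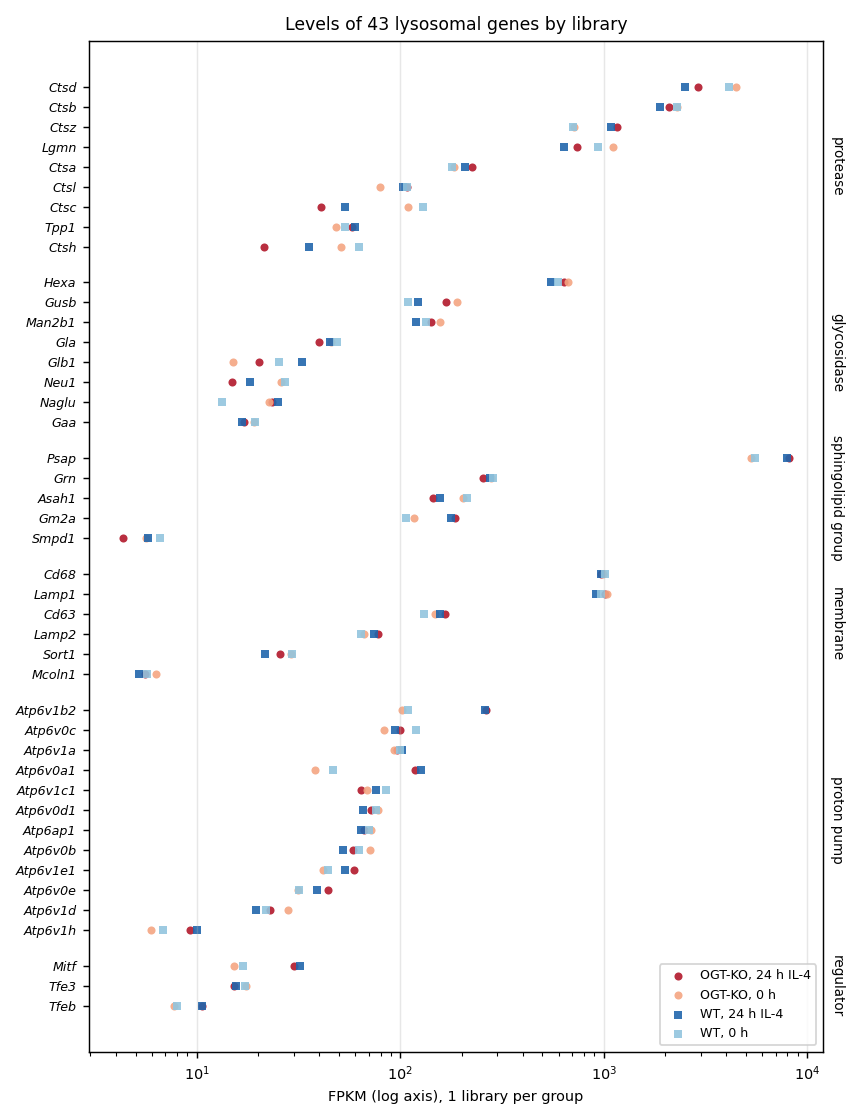
Levels of the 43 genes by role. Each row is a gene and each marker is 1 library, plotted on a log axis in FPKM, with the 24 h and 0 h libraries of OGT-KO cells and of WT cells drawn with their own markers as in the legend. The lowest gene is Smpd1, at 4.31 to 6.57 FPKM, and the highest is Psap, at 5293 to 8176 FPKM. Within a row the 24 h and 0 h markers stand well apart for Ctsc, Atp6v0a1, Atp6v1b2 and Mitf.

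Promoters were read first for the core motif of the regulators. RefSeq promoter windows on GRCm38.p6, from 250 bases before to 50 bases after the start, were available for 36 of the 43 genes, with no entry for Ctsb, Ctsh, Asah1, Sort1, Atp6v1b2, Atp6v1c1 and Atp6v1h. CACGTG, which reads the same on both strands, stood in the window of 14 of the 36 genes (38.9%), against 2187 of 27025 genes with a window in the table (8.09%). The longer TCACGTGA, which contains CACGTG, was in 7 of the 36 (19.4%) against 1.12% of all genes. With a further G before it and C after it, it was in 0 of the 36 against 0.37% of all genes. TCATGTGA, searched on both strands as the variant that MITF also binds, was in 4 of the 36 (11.1%) against 1.15% of all genes. For 6 of the 36 genes, among them Atp6v0d1, the bases after the RefSeq start lay in no GENCODE transcript. Base composition was not matched in these shares, and a match is a description of the letters and not a bound site.

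The genes with CACGTG were Ctsa, Ctsd, Ctsl and Lgmn among the proteases, Gla, Glb1, Naglu and Gaa among the glycosidases, Lamp1 and Mcoln1 among the membrane proteins, and Atp6v0b, Atp6v0d1, Atp6v0e and Atp6v1a of the proton pump. None of the 4 genes of the sphingolipid group and none of the 3 regulators with a window held it. The 250 bases before the start are printed below on the gene's strand for 5 genes, with CACGTG in capitals. Lamp1 has the most copies, 4, beginning 61, 45, 28 and 15 bases before the start. Ctsd, the most abundant of the 9 proteases, has 2, and Glb1 and Naglu, which differed most between the genotypes among the genes with the motif, have 1 each. Ctsc, which differed most with IL-4 among the proteases, has 0 and is shown for contrast. The sequences and their starts are from RefSeq. For Ctsd, Glb1 and Naglu the GENCODE gene begins earlier, at chr7:142388038, chr9:114401076 and chr11:101070012, so part of the printed bases lies inside the annotated gene. That part holds the only CACGTG of Naglu, 73 bases before the RefSeq start, and the copy of Ctsd 98 bases before it. Lamp1 is shown from chr8:13158911-13159160 on the forward strand of GRCm38.p6. Ctsd is shown from chr7:142387828-142388077 on the reverse strand of GRCm38.p6. Glb1 is shown from chr9:114400828-114401077 on the forward strand of GRCm38.p6. Naglu is shown from chr11:101069844-101070093 on the forward strand of GRCm38.p6. Ctsc is shown from chr7:88277835-88278084 on the forward strand of GRCm38.p6.
Lamp1: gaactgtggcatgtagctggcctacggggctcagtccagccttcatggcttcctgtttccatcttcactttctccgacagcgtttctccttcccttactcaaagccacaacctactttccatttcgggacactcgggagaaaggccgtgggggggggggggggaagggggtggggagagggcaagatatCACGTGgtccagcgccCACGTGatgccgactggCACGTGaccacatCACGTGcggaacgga
Ctsd: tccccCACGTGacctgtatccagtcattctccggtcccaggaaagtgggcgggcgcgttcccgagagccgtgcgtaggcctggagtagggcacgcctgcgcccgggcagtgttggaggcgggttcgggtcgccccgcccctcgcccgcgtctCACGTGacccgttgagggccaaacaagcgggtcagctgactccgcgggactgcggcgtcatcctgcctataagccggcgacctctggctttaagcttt
Glb1: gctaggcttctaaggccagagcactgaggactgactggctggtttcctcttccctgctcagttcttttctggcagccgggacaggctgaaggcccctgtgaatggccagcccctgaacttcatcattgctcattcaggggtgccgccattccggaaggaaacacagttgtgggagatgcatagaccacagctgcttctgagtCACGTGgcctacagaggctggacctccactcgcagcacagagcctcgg
Naglu: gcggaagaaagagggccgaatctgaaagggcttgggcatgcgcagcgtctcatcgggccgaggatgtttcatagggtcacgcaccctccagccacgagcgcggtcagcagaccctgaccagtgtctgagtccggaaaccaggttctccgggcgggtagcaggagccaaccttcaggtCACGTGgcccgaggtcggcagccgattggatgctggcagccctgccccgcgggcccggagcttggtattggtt
Ctsc: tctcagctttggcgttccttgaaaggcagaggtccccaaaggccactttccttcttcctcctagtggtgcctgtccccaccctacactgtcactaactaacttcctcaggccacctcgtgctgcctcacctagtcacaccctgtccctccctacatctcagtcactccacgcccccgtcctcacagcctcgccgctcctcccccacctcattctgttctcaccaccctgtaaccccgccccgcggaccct

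Genes with and without the motif overlapped in their difference with IL-4. The median log2 difference in FPKM between 24 h and 0 h was -0.07 over the 14 genes with CACGTG and 0.06 over the 22 genes without it in OGT-KO cells, and -0.10 and 0.05 in WT cells. At least a 1.5-fold difference either way was seen for 2 of the 14 and 7 of the 22 in OGT-KO cells, and for 2 of the 14 and 5 of the 22 in WT cells. Over all genes compared, 14% were higher and 13.6% lower by that measure in OGT-KO cells, and 13.4% and 13.5% in WT cells.

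Of the regulators, Mitf had the largest difference with IL-4 and was higher in both genotypes. Tfeb had 10.7 FPKM at 24 h and 7.73 at 0 h in OGT-KO cells, and 10.6 and 8.002 in WT cells. On the scale used here, log2 of the ratio of FPKM + 1, these were differences of 0.42 in OGT-KO and 0.36 in WT cells. Tfe3 had 15.2 FPKM at 24 h and 17.4 at 0 h in OGT-KO cells, and 15.6 and 17.3 in WT cells. Mitf had 29.9 FPKM at 24 h and 15.2 at 0 h in OGT-KO cells, and 32.0 and 16.9 in WT cells, log2 differences of 0.93 and 0.88, short of 2-fold in both. Between OGT-KO and WT cells none of the 3 regulators differed by more than 0.15 in log2 FPKM + 1 at either time. These are transcript levels, and the factors are controlled largely by phosphorylation and by their place in the cell, which RNA-seq does not measure.

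With IL-4, 2 of the 43 genes were at least 2-fold higher and 2 at least 2-fold lower in OGT-KO cells, against 5.16% and 5.99% of the 11577 genes compared. In WT cells 2 genes were at least 2-fold higher and 1 was at least 2-fold lower, against 4.76% and 6.26% of 11687 genes. The share of the list was 4.65% for 2 of 43 and 2.33% for the 1 gene lower in WT cells, which is 1 gene less than in OGT-KO cells. At 1.5-fold, 6 genes were higher and 5 lower in OGT-KO cells, against 14% and 13.6% of genes, and 6 were higher and 3 lower in WT cells, against 13.4% and 13.5%. After either rescaling of the libraries, to their median ratio or to equal totals, the WT split was 5 higher and 5 lower, with Lgmn and Neu1 added to the lower genes and Ctsz lost from the higher ones, and the OGT-KO split was 5 and 5, with Psap no longer past 1.5-fold. The median log2 difference of the list was -0.06 in OGT-KO cells and -0.09 in WT cells, beside 0.03 and 0.02 over all genes compared, so that it lay within 0.25 of no difference in both. By role, the median difference in OGT-KO and WT cells was -0.13 and -0.27 for the proteases, -0.15 and -0.11 for the glycosidases, -0.03 and -0.08 for the membrane genes, 0.15 and -0.04 for the proton pump, and 0.42 and 0.36 for the regulators. The median of the sphingolipid group was negative, at -0.13 and -0.05, although its summed FPKM was higher with IL-4, since Psap carries most of that sum.

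Among the proteases the cysteine protease cathepsin C and the aminopeptidase cathepsin H were lower with IL-4, and cathepsin Z was higher. Ctsc, which activates the serine proteases of granulocytes, had 41.0 FPKM at 24 h and 109 at 0 h in OGT-KO cells, and 53.7 and 129 FPKM in WT cells. The log2 difference was -1.39 in OGT-KO and -1.25 in WT cells, so that Ctsc was lower past 2-fold in both. Most of the markers of neutrophils were lower alongside it. Of the 9 that could be compared, 6 were lower past 2-fold in OGT-KO cells and 7 in WT cells. Their part in the level of Ctsc was not tested. Of the 10 markers of macrophages, 6 and 5 were lower past 2-fold. Ctsh had 21.5 FPKM at 24 h and 51.3 at 0 h in OGT-KO cells, and 35.5 and 62.8 FPKM in WT cells, differences of -1.22 and -0.81, of which the first was past 2-fold. The aspartyl protease Ctsd had 2918 FPKM at 24 h and 4466 at 0 h in OGT-KO cells, and 2505 and 4149.6 FPKM in WT cells, log2 differences of -0.61 and -0.73. Lgmn, the asparaginyl endopeptidase legumain that processes cathepsins, had 737 FPKM at 24 h and 1107 at 0 h in OGT-KO cells, and 637 and 938 FPKM in WT cells, differences of -0.58 and -0.56. Ctsb had 2095 FPKM at 24 h and 2294 at 0 h in OGT-KO cells, and 1894 and 2289 FPKM in WT cells, log2 differences of -0.13 and -0.27. Ctsz, a carboxypeptidase, had 1159 FPKM at 24 h and 717 at 0 h in OGT-KO cells, and 1092 and 709 FPKM in WT cells, log2 differences of 0.69 and 0.62. The 3 other proteases, Ctsa, Ctsl and Tpp1, lay between 48.6 and 225 FPKM and their pairwise log2 differences between -0.43 and 0.44. Exons of Ctsa overlap those of Pltp on the other strand by 495 bases, and Pltp had 417 FPKM at 24 h and 782 at 0 h in OGT-KO cells and 230.1 and 473 FPKM in WT cells, so Ctsa is uncertain wherever strand was not kept.

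Among the glycosidases the sialidase Neu1 was lower with IL-4 and Naglu, which removes N-acetylglucosamine from heparan sulfate, was higher past 1.5-fold in WT cells. Glb1 was higher in both genotypes, short of 1.5-fold, with log2 differences of 0.40 in OGT-KO and 0.36 in WT cells. Of the 8 glycosidases, 2 were higher with IL-4 in OGT-KO cells and 3 in WT cells. Neu1 had 14.9 FPKM at 24 h and 26.0 at 0 h in OGT-KO cells, and 18.3 and 27.1 FPKM in WT cells, log2 differences of -0.77 and -0.54. Naglu had 23.4 FPKM at 24 h and 22.5 at 0 h in OGT-KO cells, and 25.1 and 13.2 FPKM in WT cells, differences of 0.05 and 0.87. The WT library at 0 h was the low one of the 4, and the response in OGT-KO minus that in WT was -0.82 with no error between cultures to test it. Hexa, a subunit of beta-hexosaminidase and the most abundant glycosidase, had 641 FPKM at 24 h and 667 at 0 h in OGT-KO cells, and 549.6 and 596 FPKM in WT cells. Man2b1, the lysosomal alpha-mannosidase, had 142 FPKM at 24 h and 157 at 0 h in OGT-KO cells, and 119 and 134 FPKM in WT cells. Gla and Gaa, which degrade galactose-ended lipids and glycogen, lay between 16.7 and 48.6 FPKM with log2 differences between -0.20 and 0.03.

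In the sphingolipid group the activator genes were higher with IL-4 and acid ceramidase was lower. Psap had 8176 FPKM at 24 h and 5293 at 0 h in OGT-KO cells, and 8001 and 5551 FPKM in WT cells, log2 differences of 0.63 and 0.53. Gm2a, the activator of GM2 ganglioside breakdown, had 187 FPKM at 24 h and 117 at 0 h in OGT-KO cells, and 178 and 106 FPKM in WT cells, differences of 0.67 and 0.74. Asah1, the acid ceramidase, had 144 FPKM at 24 h and 204 at 0 h in OGT-KO cells, and 157 and 213 FPKM in WT cells, differences of -0.50 and -0.44. Both genotypes placed Psap and Gm2a above and Asah1 below their 0 h level. Grn, which encodes progranulin, had 255 FPKM at 24 h and 279 at 0 h in OGT-KO cells, and 277 and 287 FPKM in WT cells. Smpd1, the acid sphingomyelinase, was the lowest of the 43 with 4.31 to 6.57 FPKM.

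The membrane proteins were close to even with IL-4. Lamp1, a main glycoprotein of the lysosomal membrane, had 1017 FPKM at 24 h and 1035 at 0 h in OGT-KO cells, and 911 and 968 FPKM in WT cells. Cd68, a glycoprotein of macrophage lysosomes, had 966 FPKM at 24 h and 992 at 0 h in OGT-KO cells, and 965 and 1009 FPKM in WT cells. Cd63, a tetraspanin of late endosomes, had 166 FPKM at 24 h and 148 at 0 h in OGT-KO cells, and 157 and 130.3 FPKM in WT cells, and shares 98.0% of 858 bases with the pseudogene Cd63-ps, which makes its level uncertain. Lamp2, the calcium channel Mcoln1 and the sorting receptor Sort1 lay between 5.22 and 77.5 FPKM with log2 differences between -0.42 and 0.23.

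In the proton pump, an a and a B subunit were higher with IL-4 past 2-fold. Atp6v0a1, an isoform of the membrane subunit a that couples proton flow to rotation, had 118 FPKM at 24 h and 37.9 at 0 h in OGT-KO cells, and 127 and 46.9 FPKM in WT cells. Atp6v1b2, the B subunit that forms part of the ATP-hydrolysing head, had 263 FPKM at 24 h and 102 at 0 h in OGT-KO cells, and 259.6 and 109.6 FPKM in WT cells. The log2 differences were 1.61 in OGT-KO and 1.42 in WT cells for Atp6v0a1, and 1.36 and 1.24 for Atp6v1b2, so both were past 2-fold in both genotypes. Atp6v1a, the catalytic A subunit that pairs with B in the head, had 96.0 FPKM at 24 h and 93.2 at 0 h in OGT-KO cells, and 102 and 99.4 FPKM in WT cells, and did not share the difference of its partner. Atp6v0c, a subunit of the proteolipid ring, had 99.6 FPKM at 24 h and 83.6 at 0 h in OGT-KO cells, and 94.1 and 119 FPKM in WT cells. Its log2 difference with IL-4 was 0.25 in OGT-KO and -0.34 in WT cells. The pseudogene Atp6v0c-ps2 matches Atp6v0c in 99.8% of 465 bases and stood at 149.5, 118, 126 and 117 FPKM in OGT-KO cells at 24 h and 0 h and WT cells at 24 h and 0 h, so reads may be split between them. With both summed, the difference was 0.31 in OGT-KO and -0.10 in WT cells. The other 8 pump genes, among them Atp6v0d1, Atp6v0e and Atp6v1e1, lay between 5.96 and 85.5 FPKM, with log2 differences between -0.32 and 0.56.

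Paralogs of the pump subunits, which are not on the list, were set beside their members, since FPKM is per length and can be compared between genes. For subunit a, Atp6v0a1 was 49.4% and 25.03% of the summed isoforms in OGT-KO cells at 24 h and 0 h, and 54.1% and 32.7% in WT cells. Tcirg1, the a3 isoform of the osteoclast and of secretory lysosomes, had 111 FPKM at 24 h and 106 at 0 h in OGT-KO cells, and 101 and 91.1 FPKM in WT cells, so the share of Atp6v0a1 differed while Tcirg1 differed little. For subunit d, Atp6v0d2 had 399.6 FPKM at 24 h and 148 at 0 h in OGT-KO cells, and 475 and 231 FPKM in WT cells, against 71.8, 78.2, 65.3 and 75.6 FPKM for Atp6v0d1 in the same order. Atp6v0d2 made up 84.8% and 65.4% of subunit d in OGT-KO cells at 24 h and 0 h, and 87.9% and 75.3% in WT cells. Atp6v0a4, Atp6v1b1, Atp6v1c2 and Atp6v1e2 were listed at 0 in the 4 libraries. Atp6v0d2 is also a marker of fused macrophages and osteoclasts, and the fusion genes Ocstamp and Dcstamp were at 31.3 and 58.3 FPKM in OGT-KO cells at 24 h, against 0.0265 and 1.17 at 0 h, and at 22.4 and 37.6 FPKM in WT cells at 24 h, against 0.0444 and 2.07 at 0 h. Of the 8 markers on that list, 6 could be compared in each genotype and 5 of them were higher with IL-4. Mmp9 was lower, at 1.92 FPKM at 24 h and 3.98 at 0 h in OGT-KO cells, and 3.38 and 10.5 FPKM in WT cells. Calcr was listed at 0 and Oscar had at most 0.0534 FPKM. The part of cell fusion in the pump's levels was not tested.

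**Figure D2:**
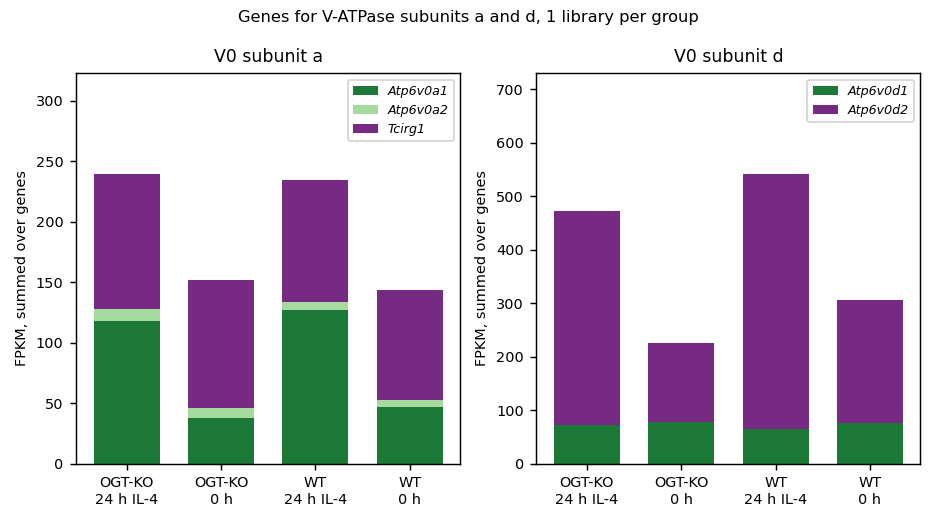
Paralogs of the proton pump subunits a and d in the 4 libraries. Each bar is 1 library in FPKM from 0, stacked by isoform, with OGT-KO cells left of WT cells and 24 h left of 0 h in each genotype. The left panel stacks Atp6v0a1, Atp6v0a2 and Tcirg1, the right panel Atp6v0d1 and Atp6v0d2. Subunit a sums to 239 FPKM in OGT-KO cells and 235 in WT cells at 24 h, and subunit d is mostly Atp6v0d2.

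**Figure D3:**
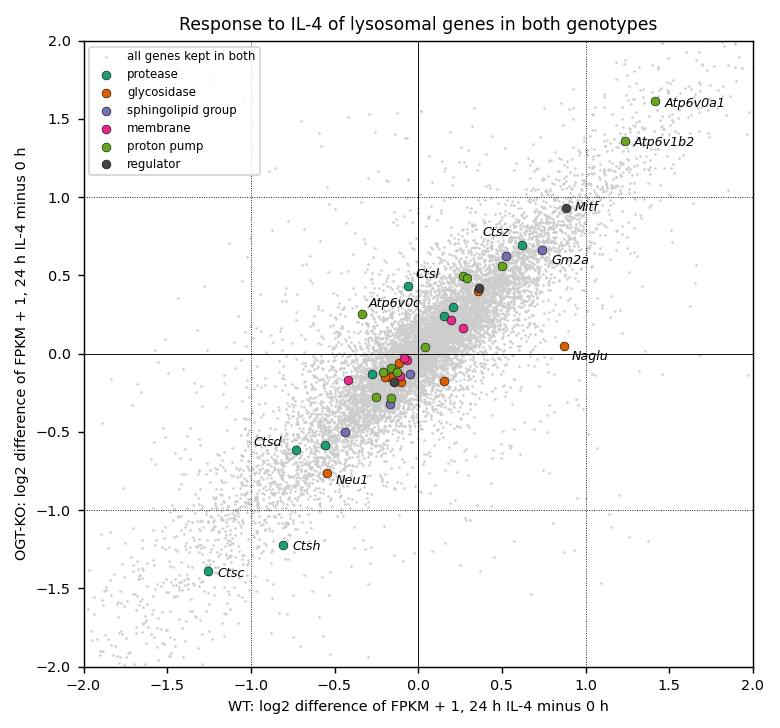
IL-4 response of the 43 genes in both genotypes. Each point is a gene, with its log2 difference (24 h against 0 h, FPKM + 1) in OGT-KO cells on the vertical axis and in WT cells on the horizontal axis, coloured by role. Grey points are the other genes, those outside the axes are not drawn, and dotted lines mark 2-fold. Atp6v0a1 and Atp6v1b2 lie at the top right, and Ctsc and Ctsh at the bottom left.

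The difference with IL-4 had the same sign in OGT-KO and WT cells for most of the 43 genes, and those comparisons share no library. Over the 43 genes the log2 differences correlated with r = 0.924 and rho = 0.873 across genes, which are not independent replicates, beside r = 0.885 and rho = 0.838 over all 11264 genes compared in both. The sign was the same for 40 of the 43, beside 83.8% of all genes, with Ctsl, Gusb and Atp6v0c as the exceptions. The response of OGT-KO minus that of WT was past 2-fold for 0 of the 43 genes in either direction, against 1.27% and 1.16% of 12000 genes. At 1.5-fold, Atp6v0c stood on the higher side and Naglu on the lower side, 1 gene each, against 3.85% and 3.19% of genes. Its median was 0.04 over the list and 0.00 over all genes.

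Between OGT-KO and WT cells 0 of the 43 genes were past 2-fold at 0 h, against 0.88% higher and 0.871% lower of 11479 genes, and 0 were past it at 24 h, against 0.832% and 0.619% of 11302 genes. Past 1.5-fold, Gusb and Naglu were higher and Glb1 was lower at 0 h (2 and 1 of 43), against 2.81% and 3.39% of genes. At 24 h none was higher and Ctsh and Glb1 were lower (0 and 2 of 43), against 3% and 2.53%. Glb1, the lysosomal beta-galactosidase, had 20.2 FPKM in OGT-KO cells and 32.8 in WT cells at 24 h, and 15.1 and 25.4 at 0 h. It was lower in OGT-KO cells at both times, with log2 differences of -0.68 and -0.72 that correspond to 61.4% and 59.3% of the WT level. Exons of Glb1 overlap those of Tmppe on the same strand by 165 bases, and Tmppe had 8.52 and 5.51 FPKM in OGT-KO cells and 7.59 and 6.67 FPKM in WT cells at 24 h and 0 h. Gusb, the beta-glucuronidase, had 168 FPKM in OGT-KO cells and 122 in WT cells at 24 h, and 191 and 109 at 0 h, log2 differences of 0.47 and 0.80. Hexa and Man2b1 were also higher in OGT-KO cells at both times, with log2 differences of 0.22 and 0.25 at 24 h and of 0.16 and 0.23 at 0 h. Of the 8 glycosidases, 4 were higher at each time. Gla and Neu1 were lower at both, at -0.17 and -0.28 at 24 h and -0.09 and -0.06 at 0 h. So were Ctsc and Atp6v1c1 of other roles, at -0.38 and -0.25 at 24 h and -0.25 and -0.32 at 0 h. For Naglu the log2 difference was -0.10 at 24 h and 0.73 at 0 h. Ctsh was lower in OGT-KO cells, by -0.29 at 0 h and -0.70 at 24 h on the log2 scale. The median log2 difference of the list was -0.02 at 0 h and 0.05 at 24 h, beside -0.05 at both times over all genes, and it was 0.03 at 0 h after rescaling by the median ratio. At 0 h and 24 h, 34 and 36 of the 43 genes lay within 0.25 of no difference. The 6 membrane genes lay between 0.00 and 0.23 at 24 h, with a median of 0.08. The sign was the same at 24 h and 0 h for 31 of the 43 genes, beside 68.9% of all genes, and those comparisons share no library.

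**Figure D4:**
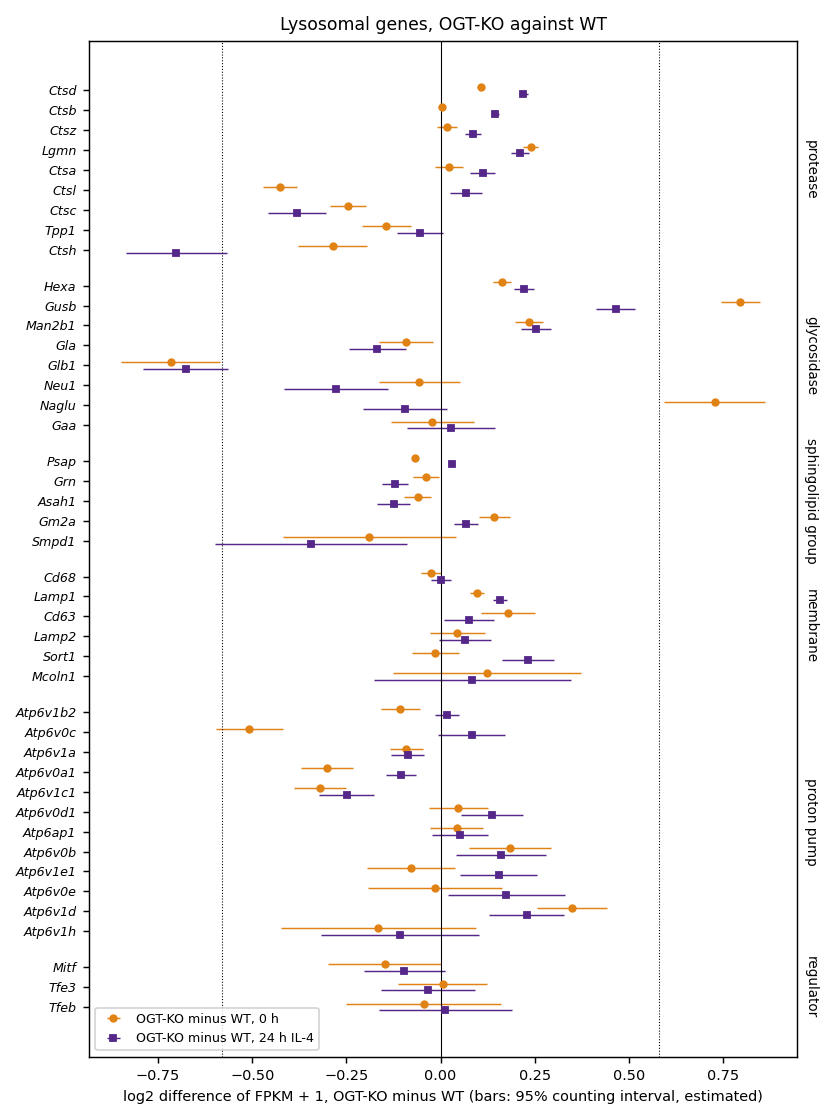
OGT-KO against WT for the 43 genes. Each row is a gene and each marker is the log2 difference (OGT-KO against WT, FPKM + 1) at 24 h or at 0 h, with error bars for the estimated 95% counting interval, which covers counting error and not the spread between cultures. Dotted lines mark 1.5-fold. Glb1 lies at -0.68 and -0.72, Gusb at 0.47 and 0.80, and most others between -0.25 and 0.25.

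Other genes of the lysosome were taken from lists of 141 genes outside the 43, and those named below were picked mostly for being past 2-fold. Of the 125 and 127 that could be compared in OGT-KO and WT cells, 4 and 5 were at least 2-fold higher and 9 and 8 at least 2-fold lower with IL-4, near the shares over all genes of 5.16% and 4.76% higher and 5.99% and 6.26% lower in OGT-KO and WT cells. Among the hydrolases, Sgsh, the heparan N-sulfatase, had 6.48 FPKM at 24 h and 27.6 at 0 h in OGT-KO cells, and 7.66 and 29.2 FPKM in WT cells. Naaa, the acid amidase of N-acylethanolamines, had 31.6 FPKM at 24 h and 8.15 at 0 h in OGT-KO cells, and 19.7 and 7.30 FPKM in WT cells. These differed in opposite directions in both genotypes. Among the membrane proteins, Scarb2, the receptor of glucocerebrosidase, had 24.0 FPKM at 24 h and 59.8 at 0 h in OGT-KO cells, and 20.6 and 51.7 FPKM in WT cells. The channel Tpcn1 and the transporter Slc15a4 were lower with IL-4, by -1.10 and -1.05 in OGT-KO cells and by -1.22 and -1.11 in WT cells on the log2 scale. No gene of the mannose 6-phosphate tagging and sorting list was past 2-fold in any of the comparisons.

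Of 31 genes of nutrient sensing and of MiT/TFE control, 29 could be compared in OGT-KO cells and 30 in WT cells. With IL-4, 3 of the 29 and 2 of the 30 were past 2-fold lower, against 5.99% and 6.26% of all genes. Sesn1, which senses leucine upstream of mTORC1, had 37.5 FPKM at 24 h and 105 at 0 h in OGT-KO cells, and 36.9 and 100.1 FPKM in WT cells. Fnip2, the partner of folliculin, had 19.7 FPKM at 24 h and 44.5 at 0 h in OGT-KO cells, and 22.5 and 52.8 FPKM in WT cells. Sesn2 had 3.42 FPKM at 24 h and 8.68 at 0 h in OGT-KO cells, and 3.17 and 7.18 FPKM in WT cells. Of 12 genes known as TFEB targets, most of them of autophagy, 10 or 11 could be compared. None of those was past 2-fold with IL-4 or between genotypes. Ppargc1a was listed at 0 in the 4 libraries. Of the cystatins, which inhibit cathepsins, Cst7 had 9.85 FPKM at 24 h and 1.38 at 0 h in OGT-KO cells, and 8.72 and 1.94 FPKM in WT cells, and Cst3 had 1081 and 1012 FPKM in OGT-KO cells and 596 and 632 FPKM in WT cells. Cst3 was higher in OGT-KO than in WT cells at both times, with log2 differences of 0.86 at 24 h and 0.68 at 0 h.

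Between the genotypes, 1 of the 126 genes of these lists that could be compared was past 2-fold at 0 h, Vma21, which was higher. At 24 h it was also 1 of 126, Ccdc115, which was lower. Over all genes, 0.88% were higher past 2-fold at 0 h and 0.619% lower at 24 h. Vma21 and Ccdc115 encode assembly factors of the pump. Vma21 had 7.88 FPKM in OGT-KO cells and 7.36 in WT cells at 24 h, and 8.72 and 2.04 at 0 h. Ccdc115 had 5.81 FPKM in OGT-KO cells and 19.9 in WT cells at 24 h, and 13.1 and 16.2 at 0 h. Slc17a5, a sialic acid transporter, had 14.6 FPKM at 24 h and 10.7 at 0 h in OGT-KO cells, and 11.9 and 21.3 FPKM in WT cells, so its difference with IL-4 in OGT-KO minus that in WT was 1.21 on the log2 scale. For Vma21 and Ccdc115, 1 of the 4 libraries stood apart from the other three, and no second library of its group was there to compare.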

How the data were processed

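RNA-seq was performed on 4 libraries, 1 per group. The authors deposited a table of FPKM for 52550 genes. The unit was inferred from the values, since no header names it, and the depth was estimated from the step that 1 fragment gives in 1-exon genes. STAR, StringTie and GRCm38 (mm10) are named in the submitters' processing notes. The annotation release, strandedness and filters were not stated in the labels or headers.

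Differences were computed with Python 3.11.15 and pandas 2.3.3 as log2 of the ratio of FPKM + 1, over genes with at least 1 FPKM in a library of the comparison, and called at 2-fold and 1.5-fold. No statistical test was run, since each group is 1 library. Counting intervals at 95% cover counting error only. Scripts were tested on simulated data. The genes, their roles, the lists and the markers were chosen with earlier results of these data known. Genes were given values if past 1.5-fold in a comparison, among the 3 most abundant of their role, or regulators. Outside the list, up to 4 genes per list past 2-fold were named, but not every gene past it. Csf1r, Adgre1, Tcirg1 and other marker or paralog genes were chosen after their values were seen. Cst3, which was not past 2-fold, was also named outside this rule. Promoter windows came from RefSeq and exon overlaps from GENCODE M21. The alternatives were 2 pseudocounts, 2 filters and 2 rescalings of the libraries. A result that met the naming rule is not reported here.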

Additional observations from a re-analysis of the deposited data

Results flagged for a closer look

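For 4 of the 43 genes, the difference pointed in opposite directions in the groups compared, each outside its estimated counting interval. With 1 library per group, whether the directions differ was not tested. The log2 difference of Ctsl with IL-4 was 0.44 in OGT-KO and -0.06 in WT cells, a difference of 0.4935. The log2 difference of Ctsl between OGT-KO and WT cells was 0.07 at 24 h and -0.43 at 0 h, which is the same 0.4935 seen the other way. For Gusb with IL-4 it was -0.18 in OGT-KO and 0.15 in WT cells, a difference of -0.3308. For Atp6v0c with IL-4 it was 0.25 in OGT-KO and -0.34 in WT cells, a difference of 0.5894, and 0.40 with its near-identical pseudogene summed in. Psap between OGT-KO and WT cells was at 0.03 at 24 h and -0.07 at 0 h, a difference of 0.0998.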

How the results depend on the processing

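The counts of genes past 2-fold in the 5 comparisons stayed within 1.5 times their value, in either direction, under pseudocounts of 0.1 and 5 FPKM, no filter, a filter at 5 FPKM, and 2 rescalings of the libraries (60 alternative values). The 30 alternative medians of the list stayed within 0.1. Values of single genes were followed for the 26 genes that met the naming rule, and not for the other 17. Of these values, 682 moved by less than the distance from the value to the end of its counting interval, and 108 by more. The 682 include every value under the 2 filters, which kept all 43 genes and leave a gene's difference as it is. Counts and medians of the list could not move under those filters either. The sign turned in 12 alternative values from 7 of those 26 genes, all under the rescalings. Each was within 0.0507 of 0 as reported, and a value that turned under both rescalings was counted for each. Of these, Naglu with IL-4 in OGT-KO cells was 0.05 and became -0.00877 with the median ratio. The median of the list for the genotypes at 0 h, -0.02, became 0.03. Over all 43 genes, 19 were higher in OGT-KO than in WT cells at 0 h, and 25 after rescaling by the median ratio. With a pseudocount of 5 FPKM, no gene was past 1.5-fold higher in the response of OGT-KO minus that of WT, against 1 otherwise. The background over all genes did move. With a pseudocount of 5 FPKM, 272 genes were past 2-fold higher and 320 lower with IL-4 in OGT-KO cells, against 597 and 693, and 253 and 304 in WT cells, against 556 and 732. Between OGT-KO and WT cells they were 23 and 20 at 0 h, against 101 and 100, and 23 and 16 at 24 h, against 94 and 70, and for the difference of the responses 36 and 36, against 152 and 139. With a pseudocount of 0.1 FPKM the shares higher and lower were 8.32% and 9.23% with IL-4 in OGT-KO cells, 7.23% and 9.63% in WT cells, 1.76% and 2.06% between genotypes before IL-4, 1.85% and 1.58% after 24 h of it, and 3.1% and 2.42% for the difference of the responses. Summing Atp6v0c and Cd63 with their near-identical pseudogenes was chosen after seeing the data. No paired analysis was possible because each group holds 1 library. The depth is an estimate, and no value here carries an error between cultures.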
